A study of Homo sapiens with 5 samples.

Results

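HKDC1, the other hexokinases and the enzymes of glycolysis were followed across 5 Affymetrix arrays of MIAPaCa2 cells, an established line from a poorly differentiated pancreatic ductal adenocarcinoma. The list holds 36 genes by pathway membership, drawn up with earlier results of these data known: the hexokinases, each later step of glycolysis, the enzymes that set fructose 2,6-bisphosphate, the lactate dehydrogenases, the pyruvate dehydrogenase kinases and the glucose and lactate transporters. Of these, 34 were measured by 78 probe sets that carry that gene's name alone, among 19775 genes named on the arrays. The lactate transporters SLC16A1 and SLC16A3 had no such probe set and were not analysed here, and 2 probe sets shared by SLC2A3 and SLC2A14 were left aside. Of the 34 genes, 27 were above background on all 5 arrays, 4 on none and 3 on some of them.

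Each array came from 1 stable cell population. All of them derive from MIAPaCa2 cells, which lack surface α2 integrin, and all were kept in a selection drug. MP2-mock cells were the mock population, without an α2 construct, and the labels give neither their vector nor their substrate. MP2-α2/TC cells carried full-length α2 and were grown on standard tissue culture plastic. MP2-α2/CI cells carried the same α2, came from the same cells, panned on collagenI coated at 25 μg/mL, and were kept on collagenI. MP2-α2Δ cells carried α2 without its cytoplasmic domain (dCYTO in the labels). They were panned on collagenI at 25 μg/mL and kept on collagenI. MP2-α9α2 cells carried a chimera of the α9 ectodomain and transmembrane domain with the α2 cytoplasmic domain and were kept on tenascin FNIII at 10 μg/mL. Full-length α2 was driven by a cytomegalovirus promoter. Both α2 constructs were selected with zeocin and the chimera with G418, and the drug of the MP2-mock cells is not named. Construct, substrate and drug therefore cannot be told apart between several of these populations, which the labels describe as stable populations.

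Glycolysis splits glucose into pyruvate in the cytoplasm. Glucose enters through facilitative transporters and is trapped by hexokinases as glucose 6-phosphate, the phosphofructokinases commit it to the pathway, and the later enzymes recover ATP and NADH. Fructose 2,6-bisphosphate, made and destroyed by the PFKFB enzymes, is a strong activator of phosphofructokinase. Lactate dehydrogenase turns pyruvate into lactate, while the PDK kinases restrain its oxidation in the mitochondria. Pancreatic carcinoma cells are known for a high glycolytic rate. HKDC1 is the most recently described vertebrate hexokinase and lies directly beside HK1 on chromosome 10.

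The values are normalized signals on a log2 scale, 1 per probe set and array. With 1 array per population no difference has an error, and no p-value was computed. Odorant receptors, 107 probe sets that pancreatic cells should not use, gave the background, and their 95th percentile was the floor of an array (2.21 to 2.27). Values under it were raised to it. The MP2-mock array and both α2 arrays (MP2-α2/TC, MP2-α2/CI) shared a minimum of 2.24, and the MP2-α2Δ and MP2-α9α2 arrays one of 2.21, so that the arrays were taken as normalized in sets of 3 and 2. Many values were identical within a set to within 1e-06. Among member probe sets above the floor, 37.9% were identical between MP2-α2/TC and MP2-mock (50.2% of all probe sets), 34.5% between MP2-α2/CI and MP2-mock (45.3%), 56.9% between the α2 arrays (52.0%) and 22.4% between MP2-α2Δ and MP2-α9α2 (29.7%). A difference of 0 in these data therefore need not mean equal RNA. The cells read as a carcinoma line with mesenchymal traits, with KRT8, KRT18, KRT19 and VIM between 11.74 and 15.85 on every array, and with EPCAM at the floor on all 5. Of the other epithelial markers, KRT7 and CDH1 were each at the floor on 4 arrays, and MUC1 and SOX9 were above it on all. Among fibroblast markers, COL1A2 read 11.97 to 13.08 and COL1A1 7.18 to 8.11, while COL3A1, LUM and DCN were at the floor. None of the measured endothelial, blood, islet, acinar or liver markers read above 4 on any array. ITGA2, the gene for α2, was at the minimum on every array except MP2-α2Δ, where its probe sets read 3.28 and 7.28. The study states that the transgene lacks the sequence these probes read, so they do not check the labels, and the source of the signal on the MP2-α2Δ array was not tested.

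By every one of its 4 probe sets, HKDC1 had less signal on the α2 arrays than on the MP2-mock array. The strongest probe set, 227614_at, read 10.54 (log2) in MP2-mock cells, against 6.78 in α2 cells on plastic (MP2-α2/TC) and 7.43 in those on collagenI (MP2-α2/CI). The mock signal was 13.6-fold that on plastic and 8.67-fold that on collagenI. Among 12682 genes above the floor in MP2-mock or MP2-α2/TC, this difference ranked 3 from the lowest, and among 12608 genes in MP2-mock or MP2-α2/CI it ranked 5. Probe set 220585_at read 5.98 in MP2-mock cells, 3.49 on plastic and 3.50 on collagenI. Probe set 237323_at read 4.28 in MP2-mock cells and 2.54 with α2 on either substrate. Probe set 237324_s_at, whose suffix marks probes that can read several transcripts, read 4.71 in MP2-mock cells and 3.04 with α2 on either substrate. The weaker probe sets thus differed by 5.60-fold, 3.34-fold and 3.18-fold between MP2-mock and MP2-α2/TC, with values on the α2 arrays between 2.54 and 3.50.

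**Figure D1:**
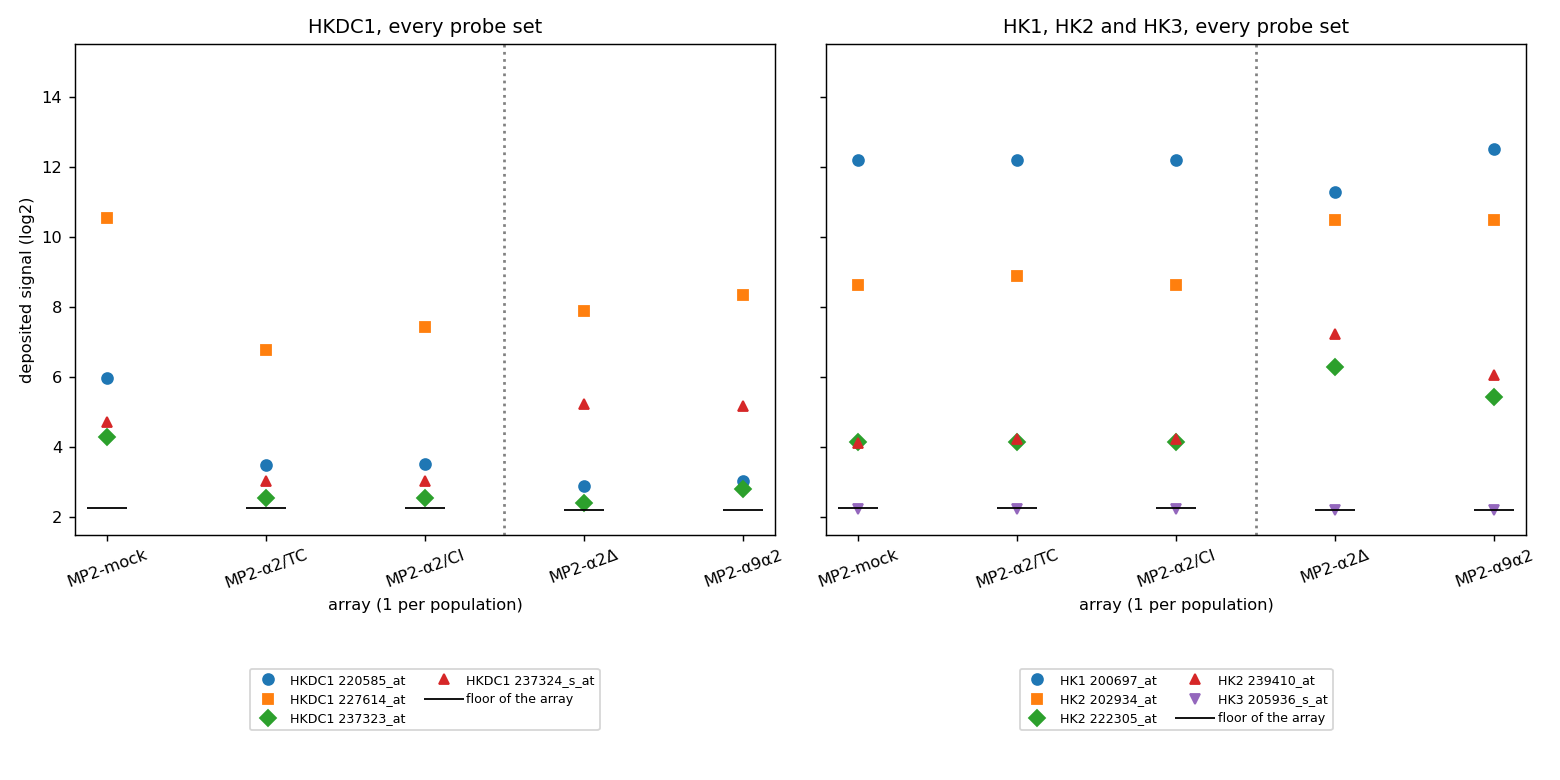
Deposited log2 signal (y axis) of each HKDC1 probe set (left) and each HK1, HK2 and HK3 probe set (right) across the 5 arrays (x axis), with a short black line at the floor of each array and a dotted line between the sets normalized apart. All 4 HKDC1 probe sets are lower with α2 than in MP2-mock, while HK1 stays at 12.20 on the 3 arrays.

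On the remaining arrays HKDC1 was also below MP2-mock by the strongest probe set, but not by every probe set. Probe set 227614_at read 7.87 in MP2-α2Δ cells and 8.33 in MP2-α9α2 cells, so that MP2-mock had the highest value of the 5 populations. Since these arrays were normalized apart, all 5 were brought to a common distribution by quantile normalization, which cannot tell array set from construct. The differences from MP2-mock were then -3.41 for MP2-α2Δ and -2.92 for MP2-α9α2 (log2). The first ranked 81 from the lowest among 13425 genes above the floor in MP2-mock or MP2-α2Δ. The second ranked 278 among 13416 genes in MP2-mock or MP2-α9α2. Differences of this size were thus more common here than on the α2 arrays. Probe set 220585_at read 2.89 in MP2-α2Δ cells and 3.03 in MP2-α9α2 cells, with quantile-normalized differences from MP2-mock of -3.56 and -3.41. Probe set 237323_at read 2.42 and 2.79 there, with differences of -2.17 and -1.85. Probe set 237324_s_at behaved otherwise, at 5.22 in MP2-α2Δ and 5.17 in MP2-α9α2. Its deposited values lay 0.51 and 0.46 above MP2-mock, and after quantile normalization its differences were -0.30 and -0.27. HKDC1 in the construct populations therefore rests on 3 of its 4 probe sets. Between MP2-α2Δ and MP2-α9α2 the probe sets differed by -0.46, -0.14, -0.38 and 0.05, none of them 2-fold.

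ALDOC, the brain-type aldolase, was the other list member at least 2-fold lower on the α2 arrays. The 250 bases before the start of HKDC1 and of ALDOC are shown because these were the 2 members that differed so. They come from RefSeq tables of GRCh38.p14. They are read 5′ to 3′ on the strand of the gene, with matches to the hypoxia response core in capitals (ACGTG or GCGTG, on either strand, the first of which also lies inside the E-box CACGTG). The HKDC1 window is chr10:69220082-69220331 on the plus strand and the ALDOC window chr17:28576896-28577145 on the minus strand.
HKDC1: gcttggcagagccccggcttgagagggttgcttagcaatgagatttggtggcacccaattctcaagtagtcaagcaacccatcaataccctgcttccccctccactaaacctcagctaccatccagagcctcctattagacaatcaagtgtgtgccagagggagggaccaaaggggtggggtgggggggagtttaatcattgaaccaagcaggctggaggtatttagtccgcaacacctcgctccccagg
ALDOC: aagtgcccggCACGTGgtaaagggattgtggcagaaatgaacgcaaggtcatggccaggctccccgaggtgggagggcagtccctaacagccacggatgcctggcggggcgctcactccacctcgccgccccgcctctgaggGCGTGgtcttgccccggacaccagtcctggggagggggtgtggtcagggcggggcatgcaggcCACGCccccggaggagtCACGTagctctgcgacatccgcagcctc
The HKDC1 window holds neither core and no E-box, which says only that these letters are not in it. The ALDOC window holds 1 E-box and further core matches. Of 35116 promoter windows of this length in the table, 43.2% held a core match and 6.3% an E-box. For the list, 33 genes matched with 64 windows, of which 51.6% held a core match and 12.5% an E-box.

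None of the other hexokinases was 2-fold apart from MP2-mock on the α2 arrays. HK1, the ubiquitous hexokinase of the outer mitochondrial membrane, had 1 probe set, at the same value of 12.20 on these 3 arrays. HK2, the inducible hexokinase of muscle and of many tumors, read 8.63 in MP2-mock cells, 8.87 with α2 on plastic and 8.63 with α2 on collagenI. HK2 by its weaker probe sets read 4.15 on all 3 arrays, and 4.13 in MP2-mock against 4.24 with α2 on either substrate. Several of these values are identical between arrays, which need not mean equal RNA. HK3, mainly a hexokinase of white blood cells, was at the floor everywhere. HKDC1 was thus the single hexokinase 2-fold apart from MP2-mock on the α2 arrays.

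The remaining enzymes differed little between the α2 populations and MP2-mock. Of 29 members above the floor in either population, none of those in MP2-α2/TC cells was higher by 2-fold, against 0.292% of all genes tested, and 2 were at least 2-fold lower (6.90%), against 0.378%. In MP2-α2/CI none of 29 was higher, against 0.262%, and 2 were lower, against 0.389%. These 2 were HKDC1, the gene the list is named for, and ALDOC in both comparisons, which share the MP2-mock array. The list was drawn up with earlier results known, so that the shares of lower members do not test it. The median difference over members was 0 in both comparisons, as was that over all genes tested. ALDOC read 3.76 in MP2-mock and 2.75 with α2 on either substrate, a difference of -1.01, from a single probe set near the floor. In all, 21 members were within 0.1 of MP2-mock on plastic and 19 on collagenI (log2), and 11 and 10 of these had exactly the same value.

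**Figure D2:**
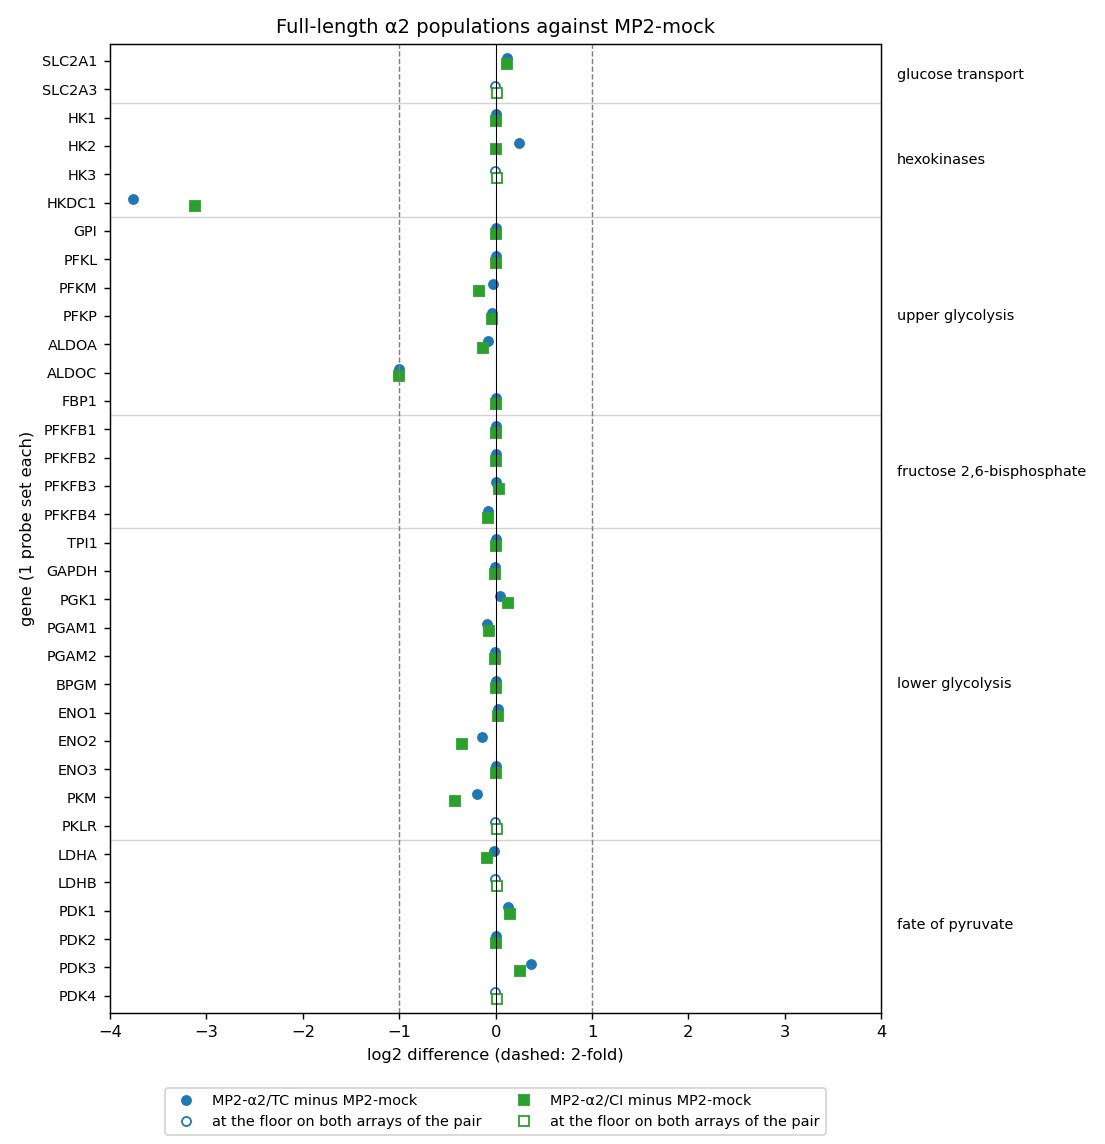
Log2 difference from MP2-mock (x axis) of MP2-α2/TC (circles) and MP2-α2/CI (squares) for the 34 measured genes (y axis, 1 probe set each, ordered by step), with open symbols for genes at the floor on both arrays of the pair and dashed lines at 2-fold. HKDC1 lies at -3.76 and -3.12 and ALDOC at -1.01 in both, and every other gene is within 0.43 of 0.

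Past these 2 genes the largest differences were small. PDK3, a pyruvate dehydrogenase kinase, read 7.72 in MP2-mock cells, 8.08 with α2 on plastic and 7.97 with α2 on collagenI. PDK1, another of these kinases and a target of hypoxia signaling, read 7.54, 7.66 and 7.69 in the same order. PKM, the pyruvate kinase of most dividing cells, read 13.62, 13.42 and 13.19 in this order. ENO2, the neuronal enolase, read 8.87, 8.74 and 8.53. PKM and ENO2 were thus highest in MP2-mock and lowest in MP2-α2/CI, with differences of -0.43 and -0.35 there, under 2-fold. A second PKM probe set, 213700_s_at, read 6.75 in MP2-mock and 6.19 with α2 on either substrate. PGK1, which makes the first ATP of the pathway, differed from MP2-mock by 0.05 on plastic and 0.13 on collagenI. SLC2A1, the GLUT1 glucose transporter of most tumors, was 8.22 in MP2-mock and 8.34 with α2 on either substrate by 201250_s_at. Its other probe set, 201249_at, was at the floor on all 5 arrays.

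The common enzymes of the lower pathway were strong and nearly level in these 3 populations. GAPDH, the redox step and a usual loading control, read 15.71 on all 3 arrays. LDHA, which makes lactate, read 14.57 in MP2-mock cells, 14.56 on plastic and 14.48 on collagenI. ENO1, the main enolase, read 14.41, 14.44 and 14.44, and PGAM1, the main phosphoglycerate mutase, 13.61, 13.52 and 13.53. TPI1, GPI and PFKL had the same value on all 3 arrays (14.77, 13.78 and 10.59). ALDOA, the main aldolase of these cells, read 14.69, 14.61 and 14.56. PFKP, the platelet-type phosphofructokinase, read 13.42, 13.39 and 13.39, and PFKM, the muscle type, 10.87, 10.84 and 10.70. Of the PFKFB enzymes, PFKFB3, the strongly kinase-biased form, was 9.30, 9.30 and 9.34, and PFKFB4 was 3.63, 3.55 and 3.55. BPGM, PFKFB2, PDK2, ENO3 and PFKFB1 each had 1 value on the 3 arrays (4.58, 4.35, 4.74, 2.50 and 2.33).

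Collagen I against plastic was compared within the full-length α2 cells, whose populations came from the same panning. Among 29 members tested, none differed by 2-fold between these substrates in either direction, against 0.0395% of genes at least 2-fold higher and 0.150% lower. HKDC1 had the largest difference of the list, 0.65 by its strongest probe set. Its other probe sets differed by 0.01, 0 and 0, so that this step is seen in 1 probe set of 4. The largest decreases were -0.24 for HK2, -0.23 for PKM and -0.21 for ENO2, and after HKDC1 the largest increases were 0.08 for PGK1 and 0.04 for PFKFB3. Of the 29 members, 15 had the same value on both arrays and 23 were within 0.1.

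MP2-α2Δ and MP2-α9α2 cells differed more widely, with 6 members 2-fold apart that lay in 5 steps of the pathway. Of 28 members above the floor in either, 5 were at least 2-fold lower in MP2-α2Δ (17.9%), against 4.97% of all genes tested. With the mean over probe sets in place of the strongest, 2 of 28 were lower. At least 2-fold higher was 1 member (3.57%), against 10.1%. The median difference over members was -0.02, and over all genes 0. These populations differ in ectodomain, cytoplasmic domain, substrate and drug at once, and each has 1 array. Member probe sets of 1 gene did not always move together, as given below.

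**Figure D3:**
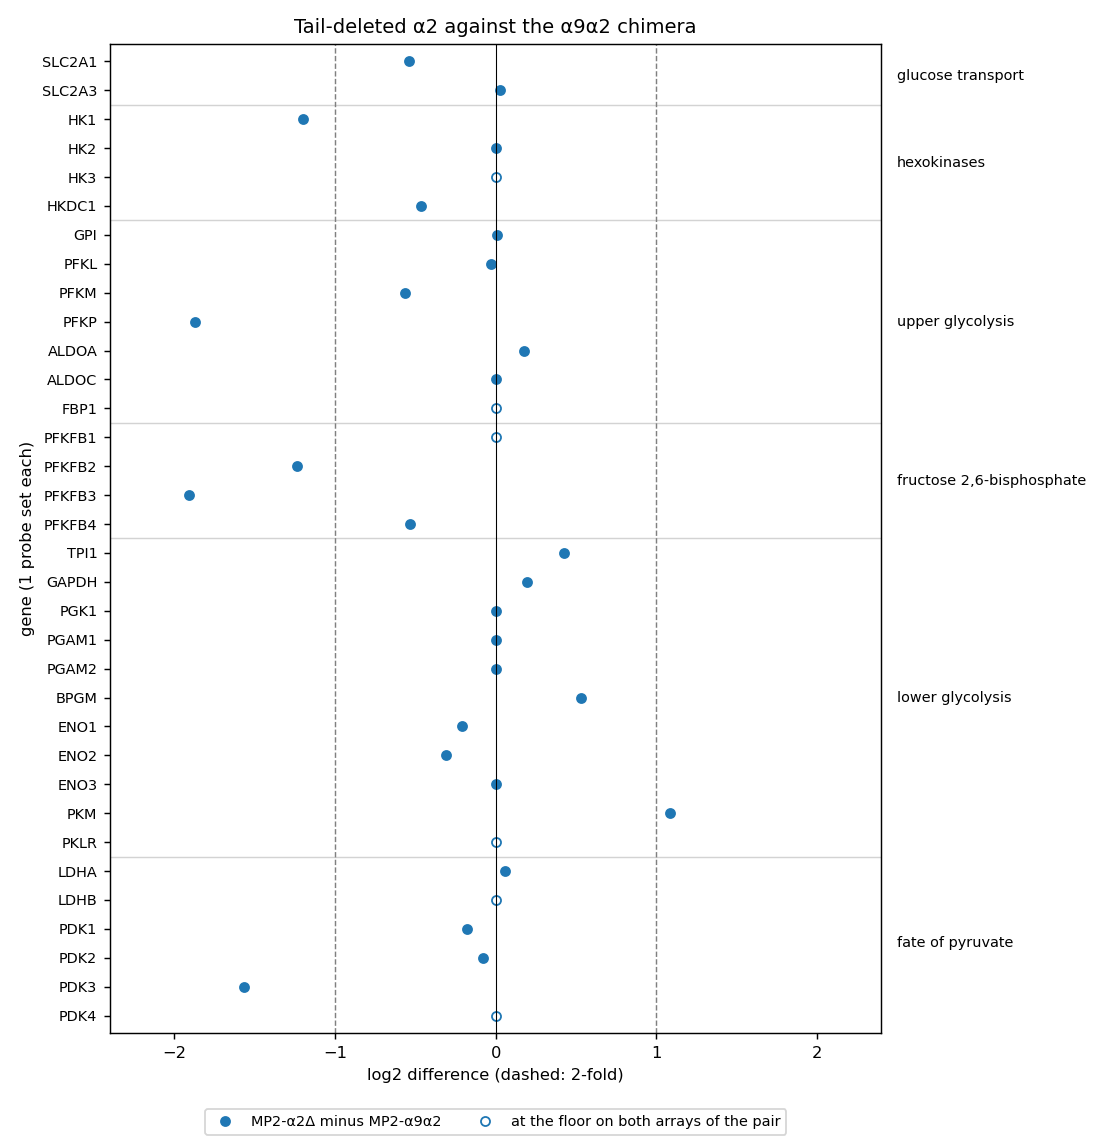
Log2 difference of MP2-α2Δ from MP2-α9α2 (x axis) for the 34 measured genes (y axis, 1 probe set each, ordered by step), with open circles for genes at the floor on both arrays and dashed lines at 2-fold. PFKFB3, PFKP, PDK3, PFKFB2 and HK1 lie left of the dashed line at -1 and PKM right of that at 1.

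PFKFB3, which makes fructose 2,6-bisphosphate, read 9.80 in MP2-α2Δ cells and 11.71 in MP2-α9α2 cells, 3.76-fold apart, by its only probe set. PFKP, a phosphofructokinase that this molecule activates, read 12.25 and 14.12, 3.66-fold apart. Its other probe set, 240202_x_at, read 2.22 on both arrays, near the floor. PFKFB2, another enzyme for fructose 2,6-bisphosphate, read 6.27 and 7.50, 2.35-fold apart, while its weaker probe sets did not differ by 2-fold. PFKFB4 differed by -0.53 and PFKM by -0.57, under 2-fold. PFKL, the liver-type phosphofructokinase, was level at 10.28 and 10.31. By the strongest probe set of each, 2 of 3 PFKFB enzymes above the floor were thus at least 2-fold lower in MP2-α2Δ. Of the enzymes from GPI to aldolase it was 1 of 6. Both counts stand beside the same 4.97% of all genes.

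HK1 read 11.29 in MP2-α2Δ cells and 12.49 in MP2-α9α2 cells, 2.30-fold apart. HK2 had the same value of 10.48 on both arrays by its strongest probe set, and was higher in MP2-α2Δ by the others, at 6.28 against 5.43 and 7.21 against 6.04, the last of them 2-fold. SLC2A1 differed by -0.54 (7.64 and 8.18) by 201250_s_at, its only probe set above the floor. PDK3 read 8.10 in MP2-α2Δ cells and 9.66 in MP2-α9α2 cells, 2.96-fold apart, and 2 of its 5 probe sets were at least 2-fold lower. PDK1 differed by -0.18 by its strongest probe set and by 0.94, the other way, by 206686_at, and PDK2 differed by -0.08.

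PKM was the member higher in MP2-α2Δ, at 13.52 against 12.43 in MP2-α9α2, 2.12-fold apart. Both PKM probe sets were at least 2-fold higher there, the second reading 7.14 and 5.69. BPGM, which makes 2,3-bisphosphoglycerate, differed by 0.53 and TPI1, the triose isomerase, by 0.42. In the same cells ENO1 and ENO2 differed by -0.21 and -0.31, LDHA by 0.06 and GPI by 0.01. PGAM1, ALDOC, ENO3 and the strongest PGK1 probe set each had the same value on both arrays, which need not mean equal RNA. Over all PGK1 probe sets above the floor the differences ran from -0.98 to 0.02. In the lower pathway 1 of 10 members above the floor was 2-fold higher, a share like the 10.1% of all genes, and none was 2-fold lower.

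Against MP2-mock the construct populations were compared after quantile normalization, since the deposited values of probe sets that exceeded every floor lay higher there, by a median of 0.53 in MP2-α2Δ cells and 0.54 in MP2-α9α2 cells. Of 30 members, 4 were at least 2-fold higher in MP2-α2Δ (13.3%), against 14.1% of all genes tested, and 4 were lower (13.3%), against 16.5%. In MP2-α9α2 6 of 29 members were higher (20.7%), against 17.5%, and 3 were lower (10.3%), against 20.1%. These shares were near or below those of all genes. With deposited values 6 were higher and 2 lower in MP2-α2Δ, and with median centring 3 and 8. For MP2-α9α2 these counts were 8 and 2, and 5 and 6. Over all genes past 2-fold, 46.1% were higher in MP2-α2Δ after quantile normalization, 81.4% with deposited values and 32.8% after centring. In MP2-α9α2 these shares were 46.6%, 74.2% and 36.5%. Members are therefore named by direction here only where the deposited, centred and quantile-normalized values were all at least 2-fold apart. None of these scalings can tell array set from construct, since both construct arrays lie in a different set from MP2-mock.

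**Figure D4:**
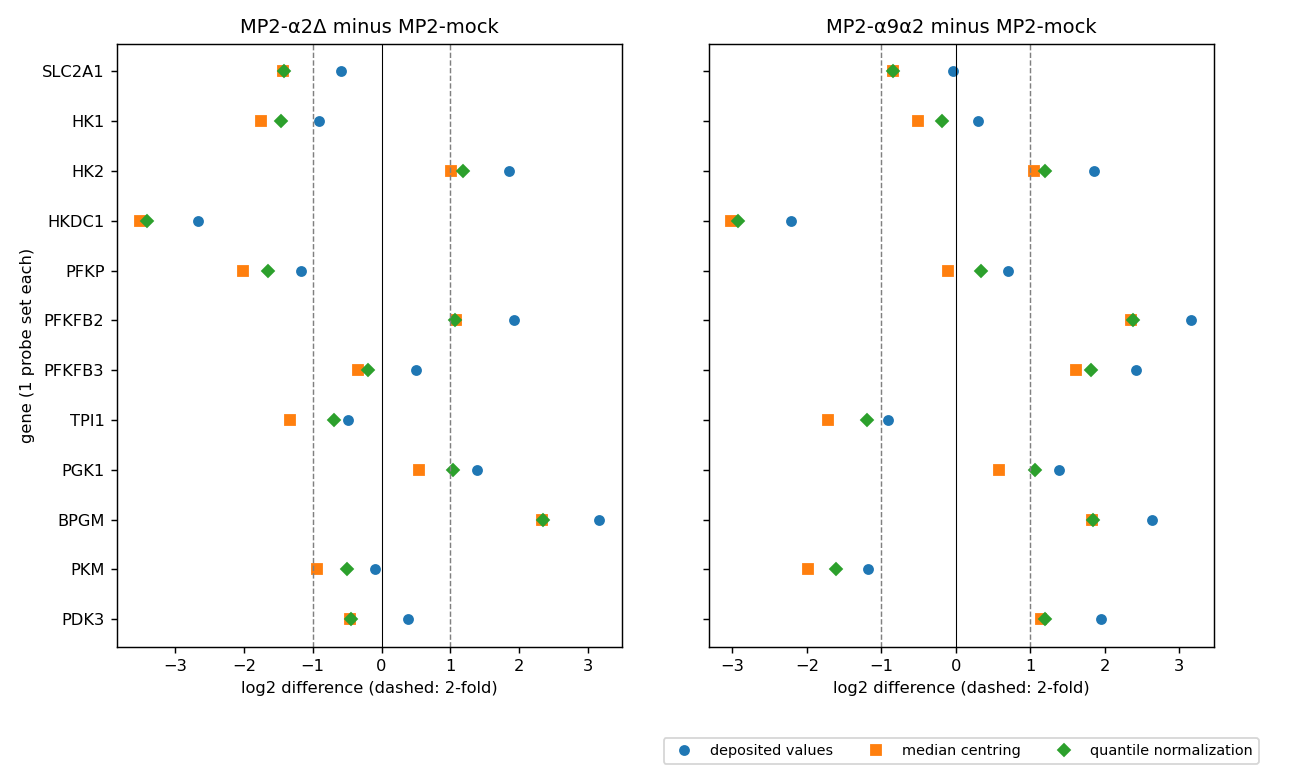
Log2 difference from MP2-mock (x axis) of MP2-α2Δ (left) and MP2-α9α2 (right) for the 12 members at least 2-fold apart after quantile normalization in either (y axis), under 3 scalings of the arrays, with dashed lines at 2-fold. HKDC1 is below -2 under each scaling in both panels, and the scalings of 1 gene lie up to 0.85 apart.

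Under all 3 scalings 3 members of MP2-α2Δ cells exceeded MP2-mock by 2-fold or more and 2 were lower, and in MP2-α9α2 5 were higher and 2 lower. By the same rule 11.3% of all genes were higher in MP2-α2Δ and 6.91% lower, against 10.0% and 6.67% of the members. In MP2-α9α2 14.7% of all genes were higher and 11.0% lower, against 17.2% and 6.90% of the members. The members' shares were thus near those of all genes or below them, and the genes that follow are given as values. HKDC1 was among the lower ones in both populations, with a range of -3.51 to -2.67 in MP2-α2Δ and -3.01 to -2.21 in MP2-α9α2. PFKP was the other in MP2-α2Δ (-2.02 to -1.18) and PKM the other in MP2-α9α2 (-1.99 to -1.19). Higher in both were BPGM, HK2 and PFKFB2. BPGM differed by 2.33 to 3.17 in MP2-α2Δ and by 1.83 to 2.64 in MP2-α9α2, from 4.58 in MP2-mock to deposited values of 7.75 and 7.21. HK2 differed by 1.01 to 1.85 in MP2-α2Δ and 1.05 to 1.85 in MP2-α9α2. After quantile normalization all 3 of its probe sets were 2-fold higher in MP2-α2Δ, and in MP2-α9α2 all but 222305_at (0.57). PFKFB2 differed by 1.07 to 1.92 and by 2.35 to 3.15 through 226733_at, and none of its other probe sets was 2-fold higher. In MP2-α9α2 alone the same held for PFKFB3 (1.61 to 2.41) and PDK3 (1.14 to 1.95), for which MP2-α2Δ did not meet it. PDK3 rests there on 228959_at, since after quantile normalization 221957_at differed by -1.25, 230085_at by -1.95, 206348_s_at by -0.28 and 206347_at by 0.02. By the strongest probe set of each, HK2 and HKDC1 therefore lay on opposite sides of MP2-mock in both construct populations. HKDC1 probe set 237324_s_at lay 0.51 and 0.46 above MP2-mock there in deposited values, and differed by -0.30 and -0.27 after quantile normalization. On the α2 arrays HKDC1 was lower by over 2-fold as well, and HK2 within 0.24 of MP2-mock.

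Several isoforms gave no signal above the floor in these cells. PKLR, the liver and red cell pyruvate kinase, HK3, PDK4, a kinase of fasting muscle, and LDHB, the heart-type lactate dehydrogenase, were at the floor on all 5 arrays by every probe set. LDHA read between 14.48 and 15.28, and both LDHB probe sets carry the _x_at suffix, which marks probes that can read several transcripts. FBP1, the gluconeogenic phosphatase, read 2.26 on the first 3 arrays and 2.21 on the others, at or within 0.01 of the floor. PFKFB1, the liver form, read 2.33 and 2.21, and SLC2A3, the neuronal GLUT3 transporter, 2.24 at most. PGAM2, the muscle mutase, read between 2.27 and 2.35 and ENO3, the muscle enolase, between 2.50 and 2.83, just above it. Of the 34 genes, 23 were above 4 on all 5 arrays and 13 above 10. For genes at the floor a fold cannot be given.

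Pathways that branch from glycolysis were followed through 8 further lists with 92 genes, of which 79 were measured. Between MP2-mock and either α2 population, 1 of 65 genes above the floor was at least 2-fold higher (1.54%) and none lower. Of all genes, 0.292% were higher and 0.378% lower in MP2-α2/TC, and 0.262% and 0.389% in MP2-α2/CI. The 1 listed gene was EPAS1, the hypoxia-inducible factor HIF-2α, at 8.35 in MP2-mock cells, 10.12 on plastic and 10.37 on collagenI. EPAS1 read 4.90 in MP2-α2Δ cells and 4.84 in MP2-α9α2 cells, and after quantile normalization its differences from MP2-mock there were -4.23 and -4.20. HIF1A, its relative that drives many glycolytic genes, read 12.86, 13.08 and 13.23, and MYC, another such regulator, 12.98 on all 3 arrays. None of 6 pentose phosphate genes, 17 citric acid cycle genes and 7 glycogen genes above the floor was 2-fold apart from MP2-mock on either α2 array. With so few of all genes past 2-fold, lists of this size would mostly show none. Between the α2 arrays the 1 gene past 2-fold was PDP1, a phosphatase that reactivates pyruvate dehydrogenase, at 7.33 on plastic and 8.39 on collagenI, with MP2-mock between them at 7.86. Of all genes, 0.0395% were higher on collagenI and 0.150% lower.

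Between MP2-α2Δ and MP2-α9α2, 7 of 66 such genes were at least 2-fold higher in MP2-α2Δ (10.6%) and 4 lower (6.06%), close to the 10.1% and 4.97% of all genes. Of the list for pyruvate entry and pyruvate dehydrogenase, 3 of 9 genes were higher. PDP1 read 11.20 against 8.84. MPC1 and MPC2, the subunits of the mitochondrial pyruvate carrier, read 9.28 against 8.21 and 11.36 against 9.79. The others higher were PGLS of the pentose phosphate pathway (1.52), IDH3G of the citric acid cycle (1.09), the galactokinase GALK1 (1.14) and the glucose 6-phosphatase G6PC3 (1.14). PYGB, the brain-type glycogen phosphorylase, was lower (-1.27).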

How the data were processed

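Biotin-labelled cRNA from MIAPaCa2 populations was measured on 5 Affymetrix HG-U133 Plus 2 arrays, 1 per population. The deposited tables hold normalized signals, taken as log2 because of their range. No source read here states the log base. GCRMA and MAS5 appear in the submitters' processing notes, with no version and no step. Of 54675 probe sets, 62 controls were dropped. GEO's platform table paired 41091 of the rest with a single symbol, and symbols were brought up to date by gene identifier through a RefSeq table of GRCh38.p14.

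Values under the floor of an array were raised to it. Log2 differences were taken between pairs of arrays with Python 3.11.15 and pandas 2.3.3, for genes that exceeded the floor on at least 1 of them. Each gene was read by its probe set of highest mean. Genes at least 2-fold apart were counted among the members and over all genes. The counting was run on simulated gene values with shifts larger than the threshold. This checks the code, and not the floor, the choice of probe set or the spread between arrays. Differences across the sets of arrays normalized apart were taken after quantile normalization. Precision is limited by the number of arrays. Groups came from the sample titles.

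Named were all HKDC1 probe sets, HK1 to HK3, members 2-fold apart within a set, the 3 largest differences each way, and up to 4 genes 2-fold apart from each neighbouring list. Members, lists and tests were chosen with earlier results of these data known. The alternatives were no floor or a floor at 4, other scalings, omitting probe sets with the suffix _s_at or _x_at, other choices of probe set, and 1.5-fold or 3-fold.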

Additional observations from a re-analysis of the deposited data

How the results depend on the processing

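No paired analysis was possible because each population has 1 array, and for the same reason no array could be left out of a group. HKDC1 kept its sign under each alternative in all 6 comparisons. Of 42 recomputed HKDC1 differences 31 moved by less than 0.1 (log2), as did 31 of 42 member medians, and 42 of 54 counts stayed within 1.5 times. Many of the HKDC1 values could not move. Its strongest probe set, 227614_at, lies above 4 on every array and has neither suffix, so that the floor settings and the omission of suffixed probe sets leave it unchanged by construction. Within a set of arrays it was also the probe set of largest difference. With the mean over probe sets, the HKDC1 difference from MP2-mock was -2.42 on plastic and -2.25 on collagenI. It was 0.16 for MP2-α2/CI over MP2-α2/TC, -0.23 for MP2-α2Δ over MP2-α9α2, -2.36 for MP2-α2Δ over MP2-mock and -2.11 for MP2-α9α2 over MP2-mock. With the probe set of largest difference it was -3.56 and -3.41 for the last 2 comparisons, with deposited values -2.67 and -2.21, and with centring -3.51 in MP2-α2Δ. Counts of members 2-fold apart went from 2 to 1 for both α2 populations over MP2-mock with a floor at 4, which removes ALDOC by construction, and with 3-fold in place of 2-fold. For MP2-α2/CI over MP2-α2/TC 1 member, HKDC1, passed 1.5-fold. For MP2-α2Δ over MP2-α9α2 the 6 members became 3 with the mean over probe sets and 2 at 3-fold. For MP2-α2Δ over MP2-mock 8 became 15 at 1.5-fold and 3 at 3-fold, and for MP2-α9α2 over MP2-mock 9 became 18 and 5, and 4 with the mean over probe sets. The median over members was -0.13 for MP2-α2Δ over MP2-α9α2 with a floor at 4. For MP2-α2Δ over MP2-mock it was -0.06 as reported, -0.17 with a floor at 4, -0.67 with centring and 0.18 with deposited values. For MP2-α9α2 over MP2-mock it was 0.11 as reported, -0.0002 without a floor, 0.34 with a floor at 4, -0.48 with centring, 0.32 with deposited values, 0.24 without probe sets that can read several transcripts, -0.0186 with the mean over probe sets and -0.0578 with the probe set of largest difference. The sign of these 2 medians therefore depends on the scaling. Other causes were not tested. Of the probe sets chosen for the 34 genes, 17 carry the _s_at or _x_at suffix.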

Other observations

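The 10 protein-coding genes beside HKDC1 on chromosome 10, 5 on each side in the RefSeq order, were read on the same arrays. Of the 8 above the floor, none was 2-fold apart from MP2-mock in either α2 population. That is the usual count for 8 genes, since of all genes 0.292% were higher and 0.378% lower in MP2-α2/TC. In MP2-α2/CI these shares were 0.262% and 0.389%. The largest difference of the 8 was -0.23, for SRGN, a proteoglycan of secretory granules, in MP2-α2/TC. SUPV3L1, a mitochondrial RNA helicase next to HKDC1 on 1 side, read 10.17 in MP2-mock cells, 9.99 on plastic and 10.01 with collagenI. HK1, next to HKDC1 on the other side, read 12.20 on each, and identical values need not mean equal RNA. Between MP2-α2Δ and MP2-α9α2, HK1 (-1.20) and FAM241B (2.49) of this stretch were 2-fold apart, in opposite directions. Of all genes, 4.97% were lower there and 10.1% higher.

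Of the glucose transporters outside the list 10 were measured, and 6 were above the floor in MP2-α2Δ or MP2-α9α2. Of these 6, 3 were at least 2-fold lower in MP2-α2Δ, against 4.97% of all genes, and none was 2-fold higher. SLC2A10, the GLUT10 transporter, read 6.58 in MP2-α2Δ cells, against 8.18 with the chimera. SLC2A12, the GLUT12 transporter, read 8.19 and 9.25. SLC2A13, a proton and inositol cotransporter, was at the floor in MP2-α2Δ and read 3.33 in MP2-α9α2, so that it was counted only through the array where it was high. On the α2 arrays none of the 6 above the floor there was 2-fold apart from MP2-mock, the largest difference being -0.46 for SLC2A6 in both. Few of all genes were, 0.292% higher and 0.378% lower in MP2-α2/TC, and 0.262% and 0.389% in MP2-α2/CI.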
